A study of Mus musculus with 6 samples.

Results

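The genes described here encode the subunits of the glutamate and GABA receptors, and they were chosen by gene symbol: *Gria*, *Grik*, *Grid*, *Grin* and *Grm* for glutamate, *Gabra* to *Gabrr* and *Gabbr* for GABA. Of 51826 genes listed in the count table, 47 carried such a symbol. They comprised 4 AMPA, 5 kainate, 2 delta, 7 NMDA and 8 metabotropic glutamate (mGlu) receptor genes, 19 GABA-A receptor genes and 2 GABA-B receptor genes. mRNA was sequenced from the cortex of male BALB/c mice aged 6 to 8 weeks, 3 days after a single 10 Gy dose of X-rays to the whole brain. The 3 *Lgmn*+/+-IR libraries came from wild-type mice, and the 3 *Lgmn*-/--IR libraries came from mice labelled as knockouts of *Lgmn*, the gene for asparagine endopeptidase (AEP), a lysosomal cysteine protease. All 6 samples were irradiated, so each comparison below is between genotypes after irradiation, and cortex without irradiation was not analysed here. The knockout was made with loxP sites around part of *Lgmn* in 1 embryonic stem cell clone and a Cre line whose driver is not given in the sources used here. Nothing in the labels says that same-numbered mice of the 2 genotypes were related or handled together.

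Glutamate is the main excitatory transmitter of the cortex. AMPA, kainate and NMDA receptors are tetrameric cation channels opened by glutamate, AMPA receptors carrying the fast current and NMDA receptors letting calcium in when the membrane is depolarised, while mGlu receptors signal through G proteins. GABA is the main inhibitory transmitter: GABA-A receptors are pentameric chloride channels built mostly from alpha, beta and gamma or delta subunits, and the GABA-B receptor is a G protein-coupled heterodimer of the *Gabbr1* and *Gabbr2* products. Which subunits are made sets where a receptor sits and how fast it opens and closes, so the subunits were compared class by class.

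The libraries held 41874462 to 46829441 counts. In them 3 counts corresponded to 0.0646 to 0.0703 counts per 1000000 counts (CPM, after TMM scaling by edgeR). This level is given for scale and was not the filter that decided which genes were tested. The targeted gene was measured at 129 ± 1.66 CPM in *Lgmn*+/+-IR against 82.5 ± 11.6 CPM in *Lgmn*-/--IR (mean ± SD, n = 3), a log2 fold change of -0.64 with a standard error (SE) of 0.12 (edgeR adjusted p = 0.0315). *Lgmn* reads thus remained in the libraries labelled *Lgmn*-/--IR. The counts are per gene and do not separate the floxed part from the rest. The adjusted p rose above 0.05, to between 0.0949 and 0.131, when any of *Lgmn*+/+-IR replicates 1 to 3 or *Lgmn*-/--IR replicate 1 was left out. Markers of myelin were lower and those of blood higher in *Lgmn*-/--IR. For 8 oligodendrocyte and myelin genes, 6 of them lower by the test, the summed level was 3598 to 4356 CPM in *Lgmn*+/+-IR against 2377 to 2557 CPM in *Lgmn*-/--IR. For 5 blood genes, all of them higher, it was 7.59 to 15.8 CPM against 234 to 2273 CPM. None of 10 pan-neuronal and none of 12 glutamatergic neuron markers passed the test, and 2 of 13 GABAergic neuron markers, *Dlx1* and *Npy*, were higher. Of the other marker lists, 1 of 8 hippocampal genes (*Lct*) was lower and 1 of 7 thalamic genes (*Ntng1*) higher. None passed among 6 oligodendrocyte precursor, 10 microglial, 6 endothelial, 7 choroid plexus and 6 cerebellar genes. Of the 10 microglial genes, however, 9 had a negative log2 fold change. Without overlap, 4 (40%, beside 13.3% of all genes) were lower in *Lgmn*-/--IR, and the summed level was 292 to 320 CPM against 249 to 276 CPM. All 10 pan-neuronal markers were detected, at a summed level of 9134 to 11531 CPM. In bulk tissue, fewer cells of a type and less RNA per cell cannot be told apart, and the part of any of these shifts in the receptor values was not tested.

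None of the receptor genes passed the test for a difference between the genotypes. The filter on low counts removed 5 genes. *Gabrp*, a GABA-A subunit best known outside the brain, had no count in any library. *Gabra6*, *Gabrr1*, *Gabrr3* and *Grm6* had at most 6 counts in any library. The filter kept the other 42, and 0 of them had an adjusted p under 0.05 by edgeR's quasi-likelihood test, with 0.123 for *Gabrb1* the smallest. Over all 18345 genes tested, 611 were called, or 3.33%, made up of 303 (1.65%) with a higher and 308 (1.68%) with a lower level in *Lgmn*-/--IR. The DEGs, which also needed an absolute log2 fold change over 1, numbered 377 (2.06%), and no receptor gene was one. At an unadjusted p under 0.05 there were 6 receptor genes, 14.3% of the 42, beside 18.6% of all genes. A second tool, DESeq2, called 1 of the 42, *Gabrb1*, with a log2 fold change of 0.40 and an adjusted p of 0.0453.

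The fold changes lay close around 0. Of the 42 genes, 22 were positive and 20 negative (*Lgmn*-/--IR over *Lgmn*+/+-IR), their median log2 fold change was 0.02 beside -0.01 for all genes tested, and they ranged from -0.50 for *Gabre* to 0.46 for *Grm8*. For 41 of 42 the absolute log2 fold change was under 0.5. The 95% confidence interval of the fold change lay inside 2-fold in either direction for 39 of 42 genes, beside 12889 of 18345 genes tested, and inside 1.5-fold for 24 of 42. The 3 whose interval was wider, *Gabre*, *Gabrq* and *Grin3b*, were all low, with means of 0.912, 2.33 and 0.320 CPM in *Lgmn*+/+-IR. At this depth and spread a 2-fold difference lay outside the interval for nearly all receptor genes, and smaller differences could not be told from none for many of them.

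**Figure D1:**
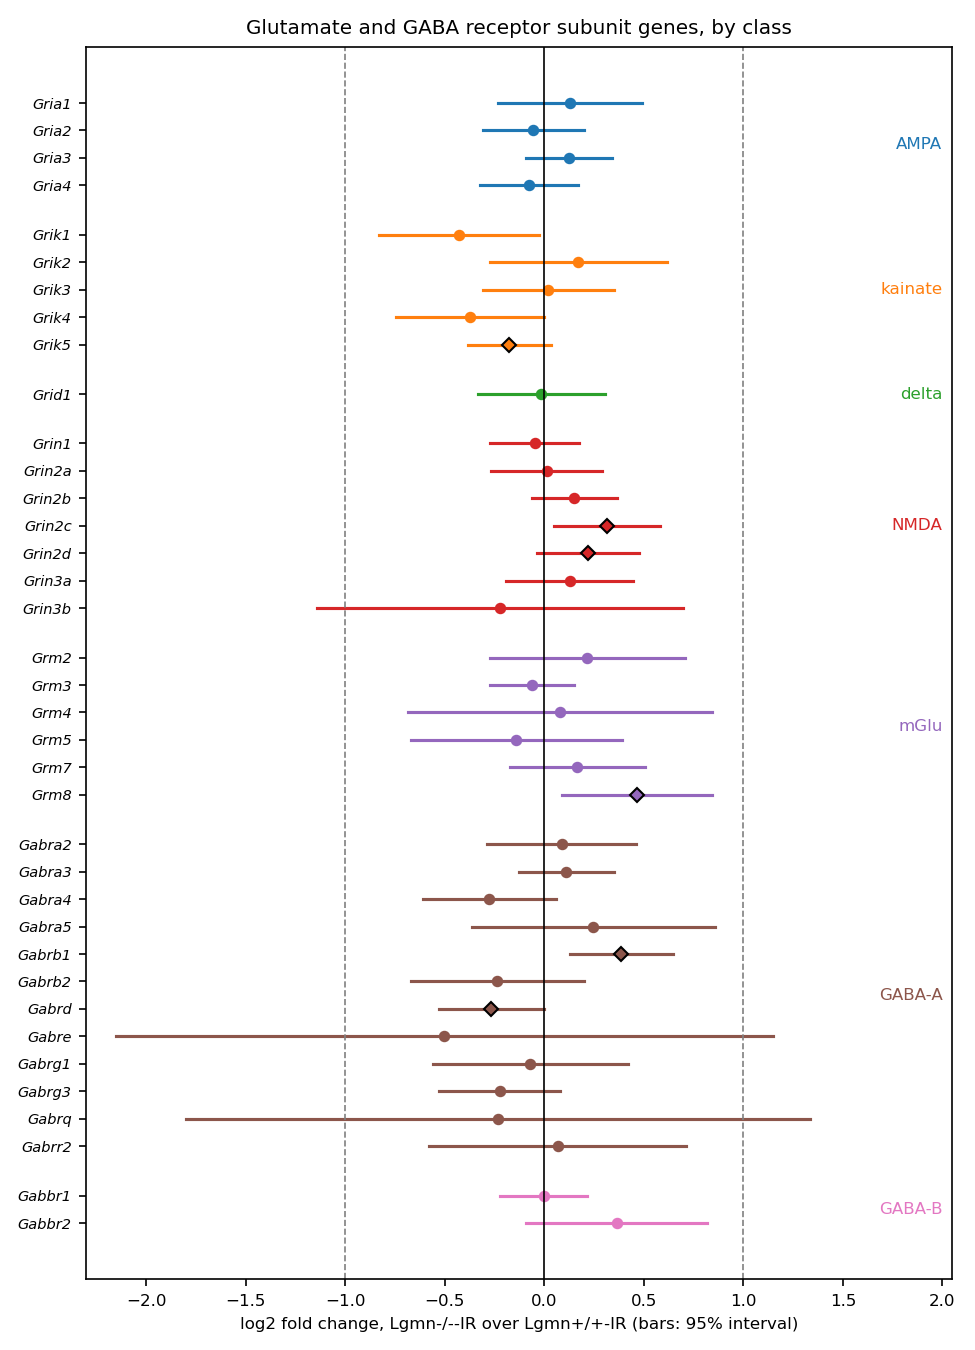
Log2 fold change (horizontal axis, *Lgmn*-/--IR over *Lgmn*+/+-IR) of 37 of the receptor genes tested, grouped and coloured by class, with the 95% interval as a bar and 2-fold marked by dashed lines. Diamonds mark the 6 genes whose CPM values did not overlap between genotypes; all points lie between -0.50 and 0.46, and the bars of *Gabre*, *Gabrq* and *Grin3b* alone cross a dashed line.

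AMPA receptor genes were expressed at similar levels in both genotypes, and 0 of 4 passed the test. *Gria1*, on chromosome 11 (57011387 to 57330244, plus strand, GRCm38), encodes GluA1 and had the highest AMPA level per transcript length, a mean of 54.0 FPKM (fragments per kilobase of transcript and 1000000 mapped fragments, the authors' values). It was measured at 261, 317 and 366 CPM in *Lgmn*+/+-IR against 402, 316 and 315 CPM in *Lgmn*-/--IR, so the groups overlapped (log2 fold change 0.13, SE 0.15, edgeR adjusted p = 0.697). The other AMPA genes, *Gria2*, *Gria3* and *Gria4*, had log2 fold changes of -0.05, 0.13 and -0.08, and the interval of each of the 4 lay inside 1.5-fold. The 4 genes together came to 893 ± 75.5 CPM in *Lgmn*+/+-IR against 925 ± 67.3 CPM in *Lgmn*-/--IR (mean ± SD, n = 3). *Gria2* encodes GluA2, whose presence makes AMPA receptors impermeable to calcium. Its share of the AMPA FPKM was 24.4%, 24.0% and 25.5% in *Lgmn*+/+-IR against 23.1%, 23.5% and 23.3% in *Lgmn*-/--IR. These shares did not overlap, although their means of 24.6% and 23.3% were close, and the CPM of *Gria2* itself overlapped between genotypes.

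Kainate receptors were the one class whose summed level did not overlap between the genotypes. The 5 genes summed to 539, 502 and 552 CPM in *Lgmn*+/+-IR against 498, 479 and 492 CPM in *Lgmn*-/--IR, a ratio of 0.922, and the groups were also apart when FPKM was summed (ratio 0.896) or CPM was scaled by library totals alone (ratio 0.899). The lowest *Lgmn*+/+-IR sum stood only just above the highest *Lgmn*-/--IR sum, and no test was applied to sums over genes that were picked with earlier results known. The sum was mostly *Grik5*, which encodes GluK5, a high-affinity subunit that needs a partner such as GluK2 to form a channel. *Grik5*, on chromosome 7 (25009849 to 25072346, minus strand), accounted for 74.9% of the kainate FPKM in *Lgmn*+/+-IR against 73.5% in *Lgmn*-/--IR. Its levels of 352, 305 and 321 CPM against 288, 302 and 276 CPM did not overlap, by the small margin between 305 and 302, and its log2 fold change was -0.18 (SE 0.088, edgeR adjusted p = 0.341). The other high-affinity subunit, *Grik4* (GluK4), was at 37.3, 29.9 and 27.6 CPM against 20.8, 24.1 and 28.3 CPM, and *Grik1* (GluK1) at 10.3, 12.9 and 15.2 CPM against 9.68, 8.47 and 10.4 CPM. Both had an overlap of a single library. Their log2 fold changes of -0.37 (SE 0.16) and -0.43 (SE 0.17) had an unadjusted p under 0.05 but edgeR adjusted p-values of 0.268 and 0.245. *Grik2* and *Grik3*, the remaining low-affinity subunits, had positive values of 0.17 and 0.02, so the 5 genes did not share a sign.

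The delta receptor genes encode channel-like proteins that bind cerebellins at the synapse. *Grid1* was at 58.6, 72.8 and 83.9 CPM in *Lgmn*+/+-IR against 72.1, 68.4 and 72.7 CPM in *Lgmn*-/--IR, with all 3 of the latter inside the range of the former (log2 fold change -0.01, SE 0.14, edgeR adjusted p = 0.965).

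Among NMDA receptor genes the values of the obligatory subunit overlapped. In CPM, 2 of the minor regulatory subunits were higher in every *Lgmn*-/--IR library than in any *Lgmn*+/+-IR library. *Grin1*, on chromosome 2 (25291181 to 25319187, minus strand), encodes GluN1, which every NMDA receptor contains. It was at 354, 332 and 378 CPM in *Lgmn*+/+-IR against 332, 323 and 374 CPM in *Lgmn*-/--IR (log2 fold change -0.05, SE 0.095, edgeR adjusted p = 0.823). *Grin2c*, on chromosome 11 (115249169 to 115267243, minus strand), encodes GluN2C, a subunit with weak magnesium block. It was at 55.7, 51.6 and 48.7 CPM in *Lgmn*+/+-IR against 63.6, 72.6 and 57.8 CPM in *Lgmn*-/--IR, groups that did not overlap. Its log2 fold change was 0.31 (SE 0.11, edgeR adjusted p = 0.205). In FPKM the groups did overlap, at 10.2, 9.55 and 8.80 against 11.4, 13.5 and 9.73. *Grin2d*, for the related GluN2D, was at 24.9, 25.7 and 22.0 CPM against 26.8, 26.9 and 30.8 CPM, and its log2 fold change was 0.22 (edgeR adjusted p = 0.335). The 2 subunits that dominate in forebrain neurons, *Grin2a* and *Grin2b*, had log2 fold changes of 0.01 and 0.15. Astrocytes and some interneurons also express *Grin2c* and *Grin2d*, and of 8 astrocyte markers 7 had a positive log2 fold change, 5 (62.5%, beside 12.4% of all genes) were higher in every *Lgmn*-/--IR library than in any *Lgmn*+/+-IR library and 1, *Aqp4*, was called higher, with summed astrocyte levels of 4033 to 4372 CPM against 4190 to 4666 CPM. Their part in the *Grin2c* values was not tested.

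As shares of the NMDA FPKM, *Grin1* took 66.6%, 65.4% and 68.5% in *Lgmn*+/+-IR against 64.3%, 62.7% and 65.2% in *Lgmn*-/--IR, without overlap. *Grin2b* took 8.40% and 9.13%, and *Grin2d* 3.45% and 4.02%, again without overlap and in the other direction. *Grin2a* (8.87% and 8.09%) and *Grin2c* (7.93% and 9.83%) overlapped. In CPM, which is not divided by length, *Grin1* took 40.2% and 37.2% and *Grin2b* 29.3% and 31.2%. There *Grin2a* took 16.9% and 16.3% and *Grin2c* 5.90% and 7.07%, so the size and rank of the shares depended on the unit. Over the classes, 6 of 37 subunit shares computed in FPKM did not overlap between genotypes, and 5 of 37 computed in CPM. For single genes, CPM did not overlap for 12.4% (higher) and 13.3% (lower) of all genes tested. Shares within a class are not independent, since a lower share of *Grin1* raises those of the others. The summed NMDA level was 882 ± 22.0 CPM and 920 ± 58.7 CPM, a ratio of 1.04, but 0.977 when FPKM was summed, so no direction can be given for the class.

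The mGlu genes held the largest positive difference of the receptor genes tested. *Grm8*, on chromosome 6 (27275119 to 28135178, minus strand), encodes the presynaptic group III receptor mGlu8. It was at 13.2, 11.1 and 13.2 CPM in *Lgmn*+/+-IR against 16.7, 14.4 and 20.7 CPM in *Lgmn*-/--IR, so all 3 knockout libraries were higher (log2 fold change 0.46, SE 0.16, edgeR adjusted p = 0.186). The other members of that group tested, *Grm4* and *Grm7*, had log2 fold changes of 0.08 and 0.17. The group II genes, which act presynaptically and in glia, had 0.22 (*Grm2*) and -0.06 (*Grm3*). *Grm3* was the steadiest mGlu gene, at 50.1 ± 0.913 CPM in *Lgmn*+/+-IR against 48.0 ± 3.13 CPM in *Lgmn*-/--IR.

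Group I receptors sit postsynaptically and couple to phospholipase C, and *Grm5* encodes the group I receptor mGlu5. *Grm5*, on chromosome 7 (87584168 to 88134907, plus strand), had the highest mGlu level at a mean of 20.2 FPKM, with 93.9, 135 and 176 CPM in *Lgmn*+/+-IR against 141, 105 and 120 CPM in *Lgmn*-/--IR. The groups overlapped, with the lowest and the highest library both in *Lgmn*+/+-IR (log2 fold change -0.14, SE 0.23, edgeR adjusted p = 0.779), and the level varied by 1.87-fold within that genotype.

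**Figure D2:**
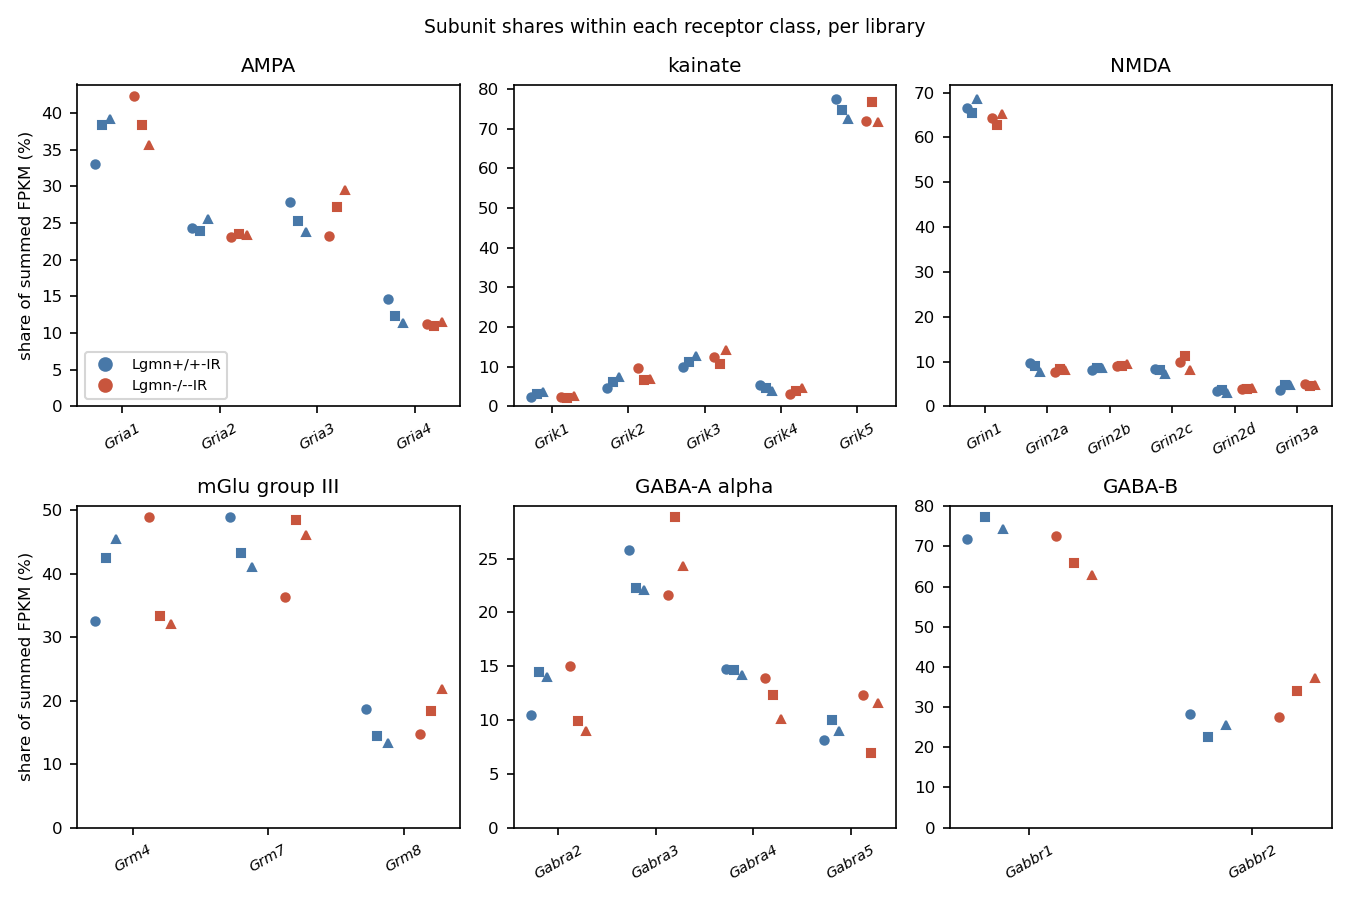
Share of subunits in the summed FPKM of their class or group (vertical axis, %), 1 symbol per library, blue for *Lgmn*+/+-IR and red for *Lgmn*-/--IR, with circles, squares and triangles for replicates 1 to 3 and subunits of 1% or less left out. *Grin1* lies at 65.4% to 68.5% in blue and 62.7% to 65.2% in red, whereas most other subunits, such as *Grik5*, overlap.

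Within a genotype, several mGlu and other receptor genes varied together with markers of striatum, a region below the cortex. The 10 striatal genes, among them *Drd1*, *Drd2* and *Adora2a*, summed to 547, 1354 and 2439 CPM in *Lgmn*+/+-IR replicates 1 to 3 and to 2162, 462 and 475 CPM in *Lgmn*-/--IR replicates 1 to 3. All 10 were detected and 0 of 10 were called, and the tissue labelled cortex thus held genes typical of striatum at levels that varied severalfold within each genotype. *Grm4*, which encodes mGlu4, was at 30.8, 44.0 and 60.6 CPM in *Lgmn*+/+-IR against 68.6, 33.0 and 41.7 CPM in *Lgmn*-/--IR. In *Lgmn*+/+-IR its order was that of the striatal sum, and in *Lgmn*-/--IR its highest library was also the one with the high sum. With the log2 striatal sum added to the genotype in the fit, a choice made after the values were seen, the slope of *Grm4* was 0.42 ± 0.058 (SE) in log2 CPM per doubling of the sum. Other positive slopes included 0.26 ± 0.069 for *Grm5*, 0.24 ± 0.045 for *Grik2*, 0.23 ± 0.070 for *Gabrg1*, 0.19 ± 0.039 for *Gria1* and 0.18 ± 0.051 for *Gabra2*. The largest slope of a receptor gene, 0.61 for *Gabrq*, had a wide SE of 0.31. Negative slopes were found for *Grm2* (-0.22 ± 0.076), *Gabbr2* (-0.19 ± 0.073) and *Grik4* (-0.17 ± 0.054). The 6 libraries fell into 3 with a striatal sum of 462 to 547 CPM and 3 with 1354 to 2439 CPM, so these slopes are given as a description of these libraries with no p. In this fit 0 receptor genes were called, and the smallest adjusted p among them was 0.0817, for *Grik4* (log2 fold change -0.48).

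**Figure D3:**
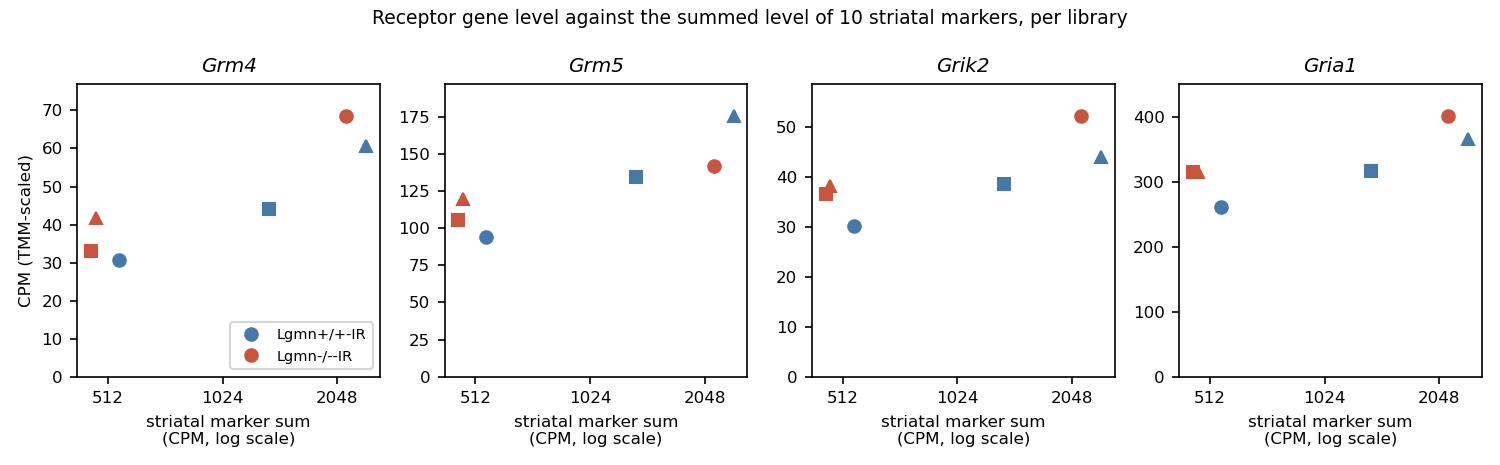
CPM of *Grm4*, *Grm5*, *Grik2* and *Gria1* (vertical axes) against the summed CPM of 10 striatal markers (horizontal axes, log scale) in each library, blue for *Lgmn*+/+-IR and red for *Lgmn*-/--IR, symbols by replicate. *Lgmn*+/+-IR replicates 2 and 3 and *Lgmn*-/--IR replicate 1 stand to the right at 1354 to 2439 CPM, and *Grm4* is at 44.0 to 68.6 CPM there and at 30.8 to 41.7 CPM in the other libraries.

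GABA-A receptor genes fell on both sides of 0, with 7 positive and 8 negative among the 15 tested. In many GABA-A receptors an alpha subunit forms the benzodiazepine site together with gamma. *Gabra3* made up 23.4% of the alpha FPKM in *Lgmn*+/+-IR and 24.9% in *Lgmn*-/--IR, and its log2 fold change was 0.11. *Gabra2* had a log2 fold change of 0.09 in counts, but -0.24 on log2(FPKM + 1), so it has no direction here. *Gabra4*, whose subunit pairs with delta outside synapses, was almost constant in *Lgmn*+/+-IR at 106, 105 and 105 CPM and was at 107, 77.4 and 75.9 CPM in *Lgmn*-/--IR. Replicates 2 and 3 of the knockout were below the wild type and replicate 1 just above it (log2 fold change -0.28, SE 0.14, edgeR adjusted p = 0.357). That replicate 1 was also the knockout library with the high striatal sum, and the slope of *Gabra4* on that sum was 0.12 ± 0.059. In *Lgmn*+/+-IR, however, *Gabra4* stayed almost constant while the sum ranged from 547 to 2439 CPM. A link between the 2 was not tested.

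Of the beta subunits, which nearly all GABA-A receptors of the cortex contain, *Gabrb1* came closest of all receptor genes to the threshold. *Gabrb1*, on chromosome 5 (71658113 to 72149037, plus strand), was at 77.1, 89.9 and 86.5 CPM in *Lgmn*+/+-IR against 111, 98.7 and 122 CPM in *Lgmn*-/--IR. All 3 knockout libraries were higher, with means of 84.5 ± 6.64 and 110 ± 11.5 CPM (SD, n = 3) and a log2 fold change of 0.39 (SE 0.11, 95% interval of the fold 1.09 to 1.56, edgeR adjusted p = 0.123). Only DESeq2 put it past 0.05. In FPKM it was also apart, at 5.30 to 6.30 and 6.87 to 7.57, and its slope on the striatal sum was 0.04 ± 0.058. It made up 10.1% and 11.9% of the beta FPKM, and 24.7% and 28.4% of the beta CPM, which is not divided by length. *Gabrb2*, a further beta gene, was at 59.9, 82.2 and 102 CPM in *Lgmn*+/+-IR against 69.8, 65.3 and 72.4 CPM in *Lgmn*-/--IR, with all 3 of the latter inside the range of the former, and had a log2 fold change of -0.24 (SE 0.18, edgeR adjusted p = 0.537). *Gabrd*, which encodes the delta subunit of extrasynaptic receptors responsible for tonic inhibition, was at 99.5, 85.6 and 97.7 CPM in *Lgmn*+/+-IR against 85.5, 80.4 and 69.4 CPM in *Lgmn*-/--IR. The groups were apart by the gap between 85.6 and 85.5 CPM, and the log2 fold change was -0.27 (SE 0.11, edgeR adjusted p = 0.266). The theta, epsilon and rho genes *Gabrq*, *Gabre* and *Gabrr2* stayed at or below 4.34 CPM in every library.

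The GABA-B heterodimer was abundant. *Gabbr1*, on chromosome 17 (37045966 to 37075067, plus strand), had the highest mean of all receptor genes at 177 FPKM. It was at 688, 728 and 712 CPM in *Lgmn*+/+-IR against 737, 632 and 753 CPM in *Lgmn*-/--IR. The log2 fold change was -0.0035 (SE 0.094, edgeR adjusted p = 0.989), with an interval of 0.856 to 1.16 for the fold. In FPKM it was at 196, 209 and 170 against 174, 149 and 167. Those means of 191 and 163 FPKM were further apart, but the groups overlapped (limma on log2(FPKM + 1), adjusted p = 0.359). The groups of *Gabbr1* overlapped in CPM as well. Within 1 Mb of it, 6 of 18 other tested genes were called, 3 higher and 3 lower, beside 3.33% of all genes tested. Around *Gabbr2*, 0 of 22 were called. *Gabbr2* was at 491, 382 and 375 CPM against 431, 485 and 690 CPM and overlapped (log2 fold change 0.36, SE 0.19, edgeR adjusted p = 0.370). The *Gabbr2* share of the GABA-B FPKM was 25.4% and 32.9%, from 28.2%, 22.5% and 25.6% against 27.5%, 34.1% and 37.2%. The 2 sums were 1125 ± 47.7 and 1243 ± 175 CPM, a ratio of 1.10, or 0.950 in FPKM.

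Over all classes, CPM values did not overlap between genotypes for 6 receptor genes. They were higher in *Lgmn*-/--IR for 4 of 42 genes, or 9.52%, namely *Gabrb1*, *Grm8*, *Grin2c* and *Grin2d*, and lower for 2, or 4.76%, namely *Gabrd* and *Grik5*. Over all genes tested the shares were 12.4% higher and 13.3% lower. The other class sums came to 391 ± 59.7 and 407 ± 50.7 CPM for mGlu (ratio 1.04, 0.990 in FPKM) and 1357 ± 74.4 and 1405 ± 160 CPM for GABA-A (ratio 1.04, 0.956 in FPKM), each with overlap.

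**Figure D4:**
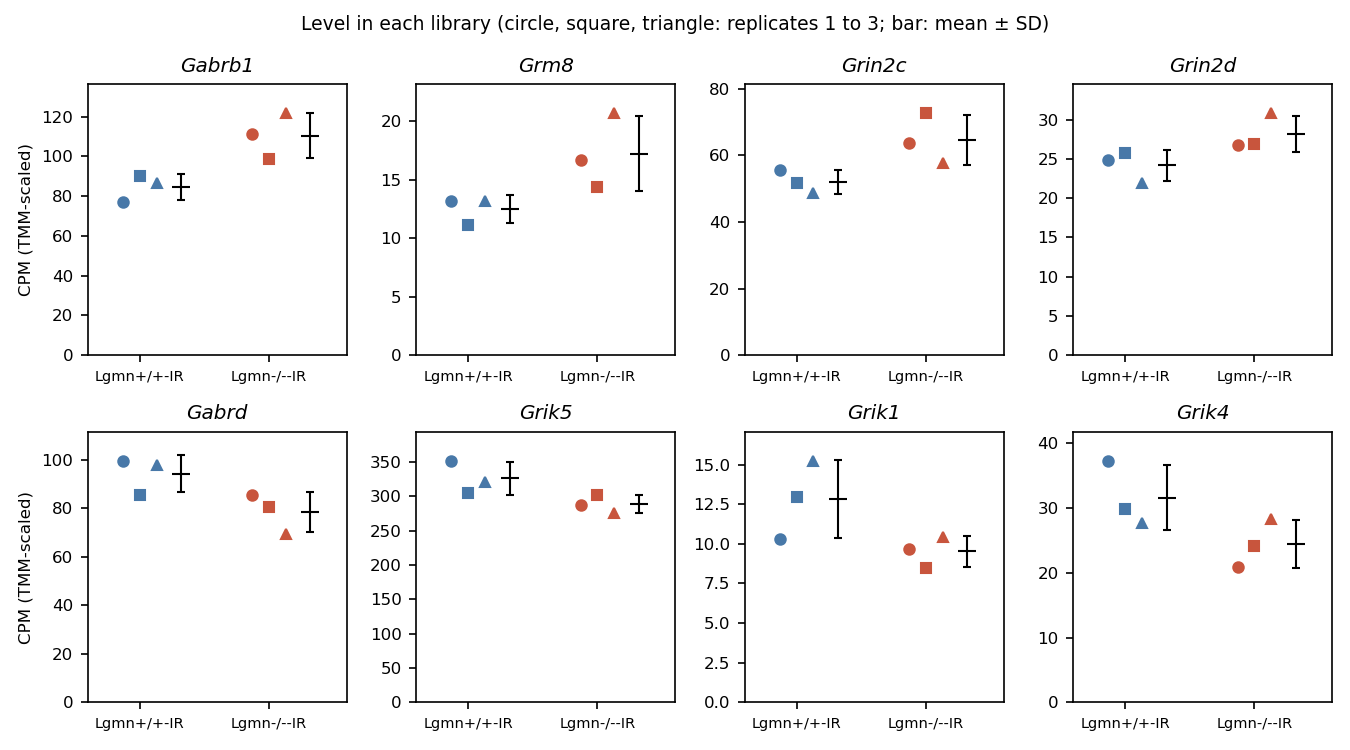
CPM (vertical axes from 0, TMM-scaled) in each library of the 6 receptor genes whose groups did not overlap and of *Grik1* and *Grik4*, with the mean ± SD of 3 libraries beside the symbols. *Gabrb1*, *Grm8*, *Grin2c* and *Grin2d* are higher in all red (*Lgmn*-/--IR) libraries, *Gabrd* and *Grik5* lower by a narrow margin, and *Grik1* and *Grik4* overlap.

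Most GABA-A genes lie in clusters, and neighbours within a cluster had values of both signs. On chromosome X the log2 fold changes were -0.50 for *Gabre*, 0.11 for *Gabra3* and -0.23 for *Gabrq*. On chromosome 7, *Gabrg3* had -0.22 and *Gabra5* 0.25. *Gabra5* was at 35.6, 43.4 and 39.1 CPM in *Lgmn*+/+-IR against 57.1, 27.9 and 55.1 CPM in *Lgmn*-/--IR, with *Lgmn*-/--IR replicate 2 the lowest of all and the other knockout libraries the highest. *Gabrr1* and *Gabrr2* form a further pair on chromosome 4. Where genes overlap on opposite strands, reads from the shared stretch cannot be told apart without strand, and no source used here states that strand was used in counting.

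On chromosome 5 the cluster had log2 fold changes of -0.07 for *Gabrg1*, 0.09 for *Gabra2*, -0.28 for *Gabra4* and 0.39 for *Gabrb1*. The last 2, which are furthest apart in value, are the closest in position: *Gabra4* (minus strand) and *Gabrb1* (plus strand) start head to head and overlap by 196 bases, from 71658113 to 71658308 in GENCODE. The RefSeq table of promoters gives *Gabrb1* a first start at 71657921, 387 bases inside *Gabra4*, so that 197 of the 250 bases before it are exon of *Gabra4*, and a second start at 71699932. The non-exonic stretches before the *Gabra4* start and the second *Gabrb1* start are given because these genes have the most different values in a cluster. Both stretches lie inside the GENCODE span of *Gabrb1*. They are the RefSeq sequences on GRCm38.p6, 5′ to 3′ on the strand of each gene. Capitals would mark the exact letters, given below, of a cAMP response element or an EGR site, and neither stretch holds them. Variants of these sites were not searched.
*Gabra4*, chr5:71658364-71658558, minus strand: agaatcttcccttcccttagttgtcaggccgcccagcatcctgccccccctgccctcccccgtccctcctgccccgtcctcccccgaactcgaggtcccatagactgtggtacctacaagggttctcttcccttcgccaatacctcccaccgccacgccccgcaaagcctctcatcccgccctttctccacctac
*Gabrb1*, chr5:71699825-71699931, plus strand: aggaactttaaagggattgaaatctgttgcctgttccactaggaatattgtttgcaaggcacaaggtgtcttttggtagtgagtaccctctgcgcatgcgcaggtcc
The *Gabra4* stretch of 195 bases has a GC content of 63.6% and 10 CpG, and the *Gabrb1* stretch of 107 bases 46.7% and 2 CpG. Windows from 250 bases before to 50 bases after a start were available for 32 of the 47 receptor genes, 39 windows in all. Their median GC content was 59.7% with 12 CpG, beside 52.7% and 7 CpG for the 32851 windows of all genes. The cAMP response element TGACGTCA, searched on both strands, was in 0 of 39 receptor windows and in 1.79% of all windows, and the EGR site GCGTGGGCG in 0 of 39 and in 0.612%.

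Proteins that assemble, anchor or serve these receptors were read from the same fit. Of 91 such genes 89 were tested, and 2 were higher in *Lgmn*-/--IR and 0 lower, beside 3.33% of all genes called. *Homer1*, on chromosome 13, encodes a scaffold that ties group I mGlu receptors to the postsynaptic density, and its short activity-induced form uncouples them. It was at 117, 112 and 110 CPM in *Lgmn*+/+-IR against 212, 203 and 292 CPM in *Lgmn*-/--IR, without overlap (log2 fold change 1.06, SE 0.15, edgeR adjusted p = 0.0125), and was the only DEG among the 89. The counts are per gene and do not separate its forms. Without *Lgmn*+/+-IR replicate 1, 2 or 3 its adjusted p was 0.0510, 0.0739 and 0.0632, and without *Lgmn*-/--IR replicate 3 it was called with a log2 fold change of 0.87, below the size that defines a DEG. On the log2(FPKM + 1) scale the log2 fold change was 0.81 and the gene was called with the filter on low values (limma adjusted p = 0.0243) but not without it (adjusted p = 0.0609). *Slc6a13*, which encodes the GABA transporter GAT2 found mainly in meninges and vessels, was at 9.23, 8.90 and 9.81 CPM against 14.7, 16.2 and 13.7 CPM (log2 fold change 0.68, SE 0.12, edgeR adjusted p = 0.0275), and the call was lost without any 1 of the 6 libraries, with adjusted p from 0.0547 to 0.140, and also with library totals as the only scaling (adjusted p = 0.0555) and on each FPKM scale (limma adjusted p from 0.0903 to 0.155).

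The remaining partner genes did not pass. Of 17 AMPA and kainate auxiliary subunit genes (the TARPs, cornichons, Shisa and Neto proteins) 0 were called, and their median log2 fold change was 0.30, beside 0.02 for the receptor genes and -0.01 for all genes. Of 25 excitatory scaffold and anchoring genes *Homer1* alone was called. None of 20 inhibitory scaffold, trafficking and GABA-B auxiliary genes, of 17 genes of glutamate release, uptake and metabolism, or of 4 glycine receptor genes was called. *Slc6a13* was the call among 8 genes of GABA synthesis and transport. At an unadjusted p under 0.05 there were 16 of 89 (18.0%), close to the 18.6% of all genes.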

How the data were processed

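Cortical mRNA of 3 *Lgmn*+/+-IR and 3 *Lgmn*-/--IR mice was analysed from the deposited tables, with groups and replicate numbers from the sample labels. Per the labels and the study's methods, the authors used Trimmomatic 0.36 for trimming and HISAT2 for mapping. They deposited raw counts per gene, not normalized, and FPKM from StringTie. The counter, its strand setting and the build were not given in the sources used here. Positions came from GENCODE M21 (GRCm38), in which 51633 of 51826 IDs were found. FPKM was used for comparing subunits, CPM for each gene.

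Counts were tested with edgeR 4.0.16 in R 4.3.3 (TMM, filterByExpr, quasi-likelihood F-test, Benjamini-Hochberg over all 18345 genes). A called gene has an adjusted p under 0.05. Alternatives were DESeq2 1.42.0, limma 3.58.1 on voom or log2 FPKM values, other scalings and filters, a replicate block and leaving out each library.

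Per-library values are given for called genes, for genes whose groups did not overlap with an absolute log2 fold change of at least 0.3, and for the highest gene of each class by FPKM; *Grik1*, *Grik4*, *Grin2d*, *Gabrd*, *Gabra4*, *Gabra5*, *Gabbr2*, *Gria2*, *Grik2*, *Gabrb2* and *Grm4* were added after their values were seen. Some receptor genes are counted in the totals but not reported by name. From partner lists, called genes were named. The receptor genes, partner lists and marker lists were chosen with earlier results of these data known. Pairs of libraries within a genotype differed by 28.7 to 102 in chi-square, averaged over genes, and each library counts as 1 sample. The study assigned same-sex littermates to groups at random, but the litter of each library is not given in the sources used here. The p-values set the difference between genotypes against the spread between these samples, which edgeR estimates with information shared across genes. The intervals of the fold change come from the edgeR fit and include the spread between libraries. Single values are given without an interval.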

Additional observations from a re-analysis of the deposited data

How the results depend on the processing

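No receptor gene was called under any of the 18 alternatives except DESeq2, which called 1 (*Gabrb1*). For the 37 receptor genes reported by name, 612 of 663 values under alternatives kept their sign and stayed uncalled, 1 was newly called, and 50, of 14 uncalled genes, changed sign. Leaving out 1 library at a time gave ranges across 0 for *Gria2* (-0.11 to 0.041), *Gria4* (-0.12 to 0.0068), *Grik2* (-0.0095 to 0.30), *Grik3* (-0.062 to 0.15), *Grid1* (-0.13 to 0.11), *Grin1* (-0.11 to 0.00029), *Grin2a* (-0.068 to 0.12), *Grm4* (-0.27 to 0.35), *Grm5* (-0.34 to 0.097), *Gabra2* (-0.040 to 0.18), *Gabrg1* (-0.26 to 0.051), *Gabrq* (-0.68 to 0.58), *Gabrr2* (-0.079 to 0.23) and *Gabbr1* (-0.049 to 0.075).

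Values under other settings also changed sign. With limma on log2 FPKM and a pseudocount of 1, filtered or not, they were -0.020 for *Grik3*, -0.15 for *Grin2a* and -0.24 for *Gabra2*, and with a pseudocount of 0.1 they were -0.021, -0.16, -0.25 and, for *Gabrq*, 0.0018. Voom gave 0.036 for *Gabrq*. Library totals alone gave -0.021 for *Grik3* and -0.029 for *Grin2a*, and upper-quartile scaling -0.0016 and -0.013. *Gabbr1* was at 0.0058 with DESeq2 or RLE scaling and 0.0053 with no filter. With the striatal sum in the fit, chosen after seeing the data, the values were 0.014 for *Gria2*, 0.070 for *Grid1*, -0.047 for *Grin2a*, 0.064 for *Grm5*, 0.099 for *Gabrg1*, 0.18 for *Gabrq* and 0.019 for *Gabbr1*.

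Over all genes the 611 calls became 1423 with DESeq2, 381 with unfiltered FPKM, 404 with no filter, 406 with at least 10 counts in every library, and 223 to 500 with 1 library left out (at most 369 without any library other than *Lgmn*-/--IR replicate 2). The 2 partner genes became 8 with DESeq2, 5 with the striatal sum (*Homer1*, *Slc6a13*, *Slc17a8*, *Cacng5* and *Mdga1*, all higher) and 0 to 2 with 1 library left out. Without *Lgmn*+/+-IR replicate 1 the only call was *Trak2* (log2 fold change -0.62), without its replicate 2 or 3 there was none, and without *Lgmn*-/--IR replicate 2 the calls were *Homer1* and *Gabarap* (0.51). *Lgmn* was no longer called at -0.62 with unfiltered FPKM, -0.63 with no filter and -0.64 with the striatal sum, and ranged from -0.74 to -0.54 with 1 library left out. The log2 ratio of summed FPKM was -0.034 for NMDA, from 0.062 in CPM (0.0080 to 0.091 with 1 library left out), and -0.074 for GABA-B, from 0.14 (0.022 to 0.21). The cause was not tested.

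With the replicate number as a block, 150 genes, 0 receptor genes and 0 partner genes were called, *Lgmn* was no longer called at -0.65 (adjusted p = 0.113), and *Grid1* was at 3.0e-05. The labels give no pairing. Deviations of same-numbered libraries correlated at -0.30, -0.05 and -0.05, and 0 of 6 libraries correlated best with its own number.

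With 3 libraries per genotype, the interval of the fold change reached 1.5-fold or beyond for all but 24 of the 42 receptor genes. At this depth 5 receptor genes were too low to test.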
